A study of Homo sapiens with 4 samples.

Results

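The genes that encode the machinery of RNA polymerase I (Pol I) and RNA polymerase III (Pol III) were examined for c-MYC peaks at their promoters in MIA PaCa-2 cells, a human line established from pancreatic ductal adenocarcinoma. They comprised 35 of the 19663 protein-coding genes of the GENCODE annotation: 13 that serve Pol I, 2 subunits that both enzymes share and 20 that serve Pol III. They were listed by name for their known roles, with earlier results of these data known. A member counted as bound in a library when the summit of a called peak lay within 1 kb of the start site (TSS) of any of its protein-coding transcripts, and such a peak is called a promoter peak here.

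Chromatin immunoprecipitation followed by sequencing (ChIP-seq) pulls down DNA with an antibody and calls peaks where sequenced fragments (tags) pile up over the local background. The treatments lasted 8 h and were DMSO (the solvent), AMG510 (100 nM) and trametinib, a MEK inhibitor (10 nM). An antibody to c-MYC gave 1 library for each of the 3 treatments, and non-specific immunoglobulin (IgG) gave 1 library from the DMSO arm, with no counterpart under either drug. No group was replicated, so the values compare single libraries of a single line, with no test between treatments, and both drug comparisons use the same DMSO library. Peak lists hold no expression values, so the cell type could not be checked against marker genes.

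Pol I makes the precursor of the large ribosomal RNAs in the nucleolus, and Pol III makes transfer RNAs, 5S ribosomal RNA and other short RNAs such as the U6 spliceosomal RNA and 7SK. Pol I is brought to its promoter by UBTF, by the complex SL1 (TBP with TAF1A to TAF1D) and by RRN3, and Pol III by TFIIIA, TFIIIC and TFIIIB. MYC is a transcription factor known for driving ribosome production and growth, and it binds with its partner MAX to the E-box CACGTG.

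The E-boxes that lay within 100 bp of a member's summit are shown to place the peaks on the sequence of the promoters. There were 11 of them, in 10 members, and 8 lay inside a peak of the DMSO list. The E-box of POLR1G lay inside its trametinib peak alone. That of TAF1D lay outside every c-MYC peak, and that of POLR3C only partly inside the trametinib peak. The 9 given here are read from GRCh38, 5′ to 3′ on the strand of the gene, with the E-box in capitals and 10 bases on each side. Those of GTF3C4 and GTF3C6 belong to members with a peak in all 3 c-MYC lists and an E-box near the DMSO summit, and the other sequences were added after the values were seen.
GTF3C4, chr9:132669990-132670015, plus strand: cccgggacccCACGTGggacgcgcga
GTF3C6, chr6:110958554-110958579, plus strand: ggcgagtctcCACGTGggtaccggcg
POLR1B, chr2:112542608-112542633, plus strand: gacgcgggcgCACGTGgagtccttca
GTF3A, chr13:27424672-27424697, plus strand: cggttcccggCACGTGtctcggcacg
GTF3C2, chr2:27356852-27356877, minus strand: ggaccaagcaCACGTGtttaccttgt
TAF1D, chr11:93740908-93740933, minus strand: gctctctgccCACGTGgcctctaaga
POLR3C, chr1:145823994-145824019, plus strand: ccgcgtcggtCACGTGagttggccag
POLR3G, chr5:90474031-90474056, plus strand: ggtcgaagtgCACGTGggtggccacg
POLR1G, chr19:45405875-45405900, plus strand: aatctgtgtcCACGTGccgctgttta

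On the canonical transcripts, the POLR1B E-box lay in the coding part of exon 1, that of GTF3A in the 5′ UTR of exon 1 and that of TAF1D in intron 1, and the other 6 lay upstream of the start. GTF3A held another E-box at chr13:27424694-27424699, and the E-box of POLR3D is given by position only, at chr8:22245311-22245316 in intron 1.

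The depth in peak calling was close among libraries, between 22700000 and 24800000 tags. The IgG list held 2966 peaks, and the c-MYC lists held 9552 in DMSO, 10378 under AMG510 and 5431 under trametinib. Most peaks were shallow, with a median of 10 to 13 tags at the summit, and where the local background was lowest a summit of 7 or 8 tags was called. A member without a peak was therefore not detected at this depth, which does not show that c-MYC was absent there.

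In DMSO, 15 of the 35 members had a c-MYC promoter peak, a share of 42.9% (95% Wilson interval 28.0 to 59.1), where 24.2% of all protein-coding genes had one. Under AMG510 it was again 15 members, against 15.3% of all genes. Under trametinib it was 11 members, or 31.4% (18.6 to 48.0), against 11.8% of all genes. No member had a peak in the IgG list, where 0 of 35 allows a share of up to 8.57% and 0.559% of all genes had one, and no member peak of the c-MYC lists overlapped an IgG peak. These intervals, like all those below, cover counting error only and treat genes or tags as independent, which neighbouring genes and read pairs are not.

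The 20 members with a peak in at least 1 c-MYC list made up 57.1% of the 35, where 31.7% of all genes had such a peak. A set of 8 members had one in all 3 lists, against 5.59% of all genes. It held TAF1D of the Pol I side and 7 genes of the Pol III side: POLR3C, POLR3D, POLR3G, GTF3A, GTF3C2, GTF3C4 and GTF3C6. The 13 Pol I genes had 3 members with a peak in DMSO, 5 under AMG510 and 3 under trametinib, while the 20 Pol III genes had 11, 9 and 8. All genes had 24.2%, 15.3% and 11.8%. Against these, the Pol I shares were 23.1%, 38.5% and 23.1%, at the background in DMSO and above it under the drugs. The Pol III shares were 55%, 45% and 40%. In DMSO the Wilson intervals of Pol I (8.18 to 50.3) and Pol III (34.2 to 74.2) overlapped. The Pol I interval under trametinib, the same as in DMSO, also held the share of all genes.

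**Figure D1:**
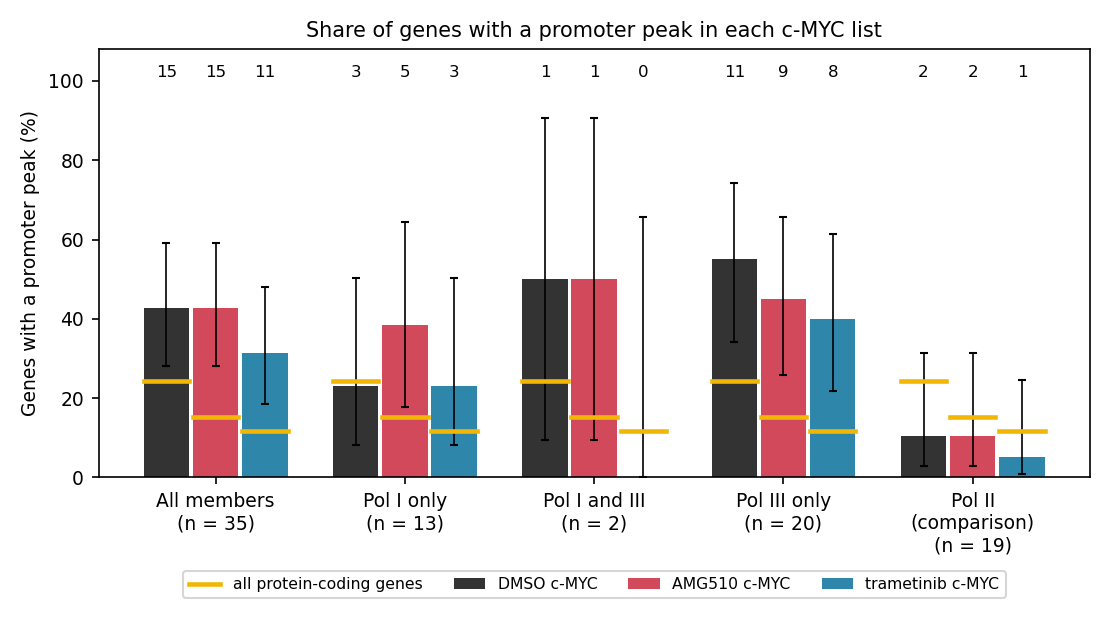
Share of genes with a promoter peak (y axis, percent) in the DMSO, AMG510 and trametinib c-MYC lists, for all members, for their roles and for a comparison list of Pol II genes; bars are shares with 95% Wilson intervals, yellow lines give the share of all protein-coding genes and the numbers above are counts of genes. The Pol III bars (11, 9 and 8 of 20) stand above the yellow lines in every list. The Pol I bars (3, 5 and 3 of 13) stand near the line in DMSO and above it under the drugs. The Pol II bars (2, 2 and 1 of 19) stand below the lines, which lie within their intervals, with no test made.

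The core of Pol I had a peak at 1 of its 6 subunit genes in DMSO, at 4 under AMG510 and at 2 under trametinib. Of all genes, 24.2%, 15.3% and 11.8% had one. POLR1B, which encodes the second-largest subunit and part of the catalytic centre, carried the deepest promoter peak of any member. Its DMSO peak at chr2:112542414-112542813 had 46 tags at the summit, 111 bp downstream of the start in coding exon 1, with a fold enrichment over background of 11.0, above 99.2% of the DMSO list. Under AMG510 the POLR1B peak held 14 tags (fold 4.56), with its summit in intron 1, and under trametinib none was called. The counting intervals of 46 tags (33.7 to 61.4) and 14 tags (7.65 to 23.5) did not overlap. Both POLR1B summits lay within 100 bp of the E-box shown above, at 44 bp in DMSO and 75 bp under AMG510.

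The other bound Pol I subunits had a peak under a drug and none in DMSO. POLR1F, a subunit of the Pol I stalk, had 12 tags under AMG510 and 15 under trametinib in peaks that overlapped, at chr7:19708805-19708991 and chr7:19708891-19709174. POLR1G, which pairs with POLR1E in a subcomplex that helps initiation and elongation, had 13 tags under AMG510 at chr19:45406776-45406994 and 15 under trametinib at chr19:45405773-45405953. These 2 POLR1G peaks did not overlap, with summits 197 bp downstream and 826 bp upstream of the nearest start, and this promoter is shared with PPP1R13L. POLR1E itself had 11 tags under AMG510 alone, at chr9:37486006-37486193 (fold 4.97). All of these were shallow calls, with folds between 4.21 and 4.97. POLR1A, the largest subunit, and POLR1H, a small subunit with a role in RNA cleavage, had no peak in any list.

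Of the subunits common to both enzymes, POLR1C had a DMSO peak at chr6:43517128-43517354 with 24 tags (fold 6.46, above 89.8% of the list), 121 bp from the nearest start and shared with YIPF3. A further DMSO peak with 14 tags, at chr6:43509802-43510128, lay by an upstream start of POLR1C and is shared with LRRC73. Under AMG510 a peak of 11 tags was called at chr6:43516597-43516789, 433 bp upstream and not overlapping either DMSO peak. No peak was called under trametinib, and the partner subunit POLR1D had none in any list.

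Among the 7 initiation and termination factors of Pol I, TAF1D and TAF1A, both TBP-associated subunits of SL1, had peaks. That is 28.6% with a peak in any c-MYC list, near the 31.7% of all genes. TAF1D had 21 tags in DMSO at chr11:93740936-93741365 (fold enrichment above 93.1% of the list), 9 under AMG510 and 11 under trametinib. The 3 summits were spread over the first part of the gene, at 245, 100 and 535 bp downstream of the start, and the promoter is shared with C11orf54. TAF1A had 14 tags in DMSO alone, at chr1:222589876-222590131 (fold 5.06). The remaining factors, UBTF, RRN3, TAF1B, TAF1C and the termination factor TTF1, had no promoter peak in any list.

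Of the 9 genes for Pol III subunits, 4 had a peak in DMSO, where 24.2% of all genes did. Under each drug 3 had one, against 15.3% of all genes for AMG510 and 11.8% for trametinib. POLR3C and POLR3G encode parts of the subcomplex that Pol III needs for initiation, and both were bound in all 3 lists. POLR3C had 16 tags in DMSO at chr1:145824084-145824515, 11 in the deeper of 2 peaks under AMG510 and 14 under trametinib. POLR3G, the form of its subunit found in stem cells and many tumours, had 27 tags in DMSO at chr5:90473756-90474184, 12 under AMG510 and 16 under trametinib, with a further DMSO peak of 20 tags at chr5:90474522-90474818. These POLR3G summits lay by upstream starts, between 593 and 989 bp before the canonical one except for that further peak at 251 bp, and the promoter is shared with MBLAC2, as that of POLR3C is with RNF115. POLR3GL, the paralogue of POLR3G in most other cells, had no peak in any list.

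POLR3D and POLR3E encode partner subunits that act in initiation and termination. POLR3D had 31 tags in DMSO at chr8:22244984-22245539 (fold 7.55, above 94.8% of the list), 12 under AMG510 at chr8:22245441-22245666 and 16 under trametinib at chr8:22245092-22245511. The DMSO value was the highest of the 3, and its interval from 21.1 tags upwards overlapped that of the trametinib peak (9.15 to 26.0). The POLR3D E-box lay 27 bp from the DMSO summit, 43 bp from the trametinib summit and 215 bp from the AMG510 summit. POLR3E had 15 tags in DMSO alone, at chr16:22297779-22297975 (fold 4.93). POLR3A and POLR3B, the catalytic subunits, had no promoter peak in any list, nor had POLR3F and POLR3K.

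TFIIIA, the product of GTF3A, binds the 5S ribosomal RNA gene and recruits the other factors there. Its promoter had 28 tags in DMSO at chr13:27424636-27424973 (fold 8.09, above 96.2% of the list), 15 under AMG510 at chr13:27424629-27424795 and 11 under trametinib at chr13:27424563-27424802. The DMSO peak was the deepest of the 3, and no other protein-coding start lay near this promoter. The 2 E-boxes of GTF3A lay 2 and 9 bp from the AMG510 summit and 35 and 47 bp from the trametinib summit, and just over 100 bp from the DMSO summit, at 105 and 117 bp.

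TFIIIC recognises the internal promoters of transfer RNA genes. Of its 6 genes, 5 had a peak in at least 1 c-MYC list (Wilson interval 43.6 to 97.0%), where 31.7% of all genes did. In at least 2 lists 3 of the 6 had one, a count for which no share over all genes was taken. The same 3 had one in all 3 lists, against 5.59% of all genes. The summits of GTF3C6 nearly coincided, at 235, 232 and 235 bp upstream of its single start, and the peaks held 28 tags in DMSO at chr6:110958302-110958951 (fold 7.05), 13 under AMG510 and 23 under trametinib (fold 6.93, above 95.2% of that list). GTF3C4 had the widest DMSO peak, chr9:132669804-132671148, with 29 tags. Under each drug its region was called as 2 narrower peaks, with 17 and 18 tags under AMG510 and 14 and 28 under trametinib. The GTF3C4 E-box lay 16 bp from the DMSO summit but 236 and 140 bp from the nearest drug summits, and the promoter is shared with DDX31.

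GTF3C2 likewise had paired peaks on either side of its start. In DMSO they held 21 tags (chr2:27356831-27357203) and 16 tags (chr2:27356480-27356656), and under AMG510 10 and 16 tags in the same order. Under trametinib 1 peak of 18 tags was called at chr2:27356858-27357050, over the larger DMSO peak. GTF3C3 had 14 tags in DMSO alone at chr2:196799670-196799850 (fold 5.83), and GTF3C5 had 14 under AMG510 alone at chr9:133031353-133031520 (fold 4.93). GTF3C1, the largest TFIIIC subunit, had no peak in any list.

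TFIIIB positions Pol III at the start site. Of its 3 genes among the members, 2, BRF1 and BDP1, had a DMSO peak, where 24.2% of all genes did. TBP, also part of TFIIIB but not a member, had no peak in any c-MYC list. BRF1 had 14 tags in DMSO at chr14:105300164-105300747 and 13 under AMG510 at chr14:105300647-105300865, beside a weaker AMG510 peak of 9 tags by an upstream start, and none under trametinib. Its main promoter is shared with PACS2. BDP1 had 15 tags in DMSO alone, at chr5:71455704-71456103 (fold 4.04). BRF2, the alternative to BRF1 at U6-type promoters, had no peak in any list. MAF1, the repressor of Pol III, had a peak under trametinib alone, of 14 tags at chr8:144104687-144104849 (fold 4.27), within the 5′ UTR of the canonical transcript. A start of SHARPIN also lay within 1 kb of that summit. It belongs to a transcript outside the protein-coding set, so this promoter is not counted as shared.

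**Figure D2:**
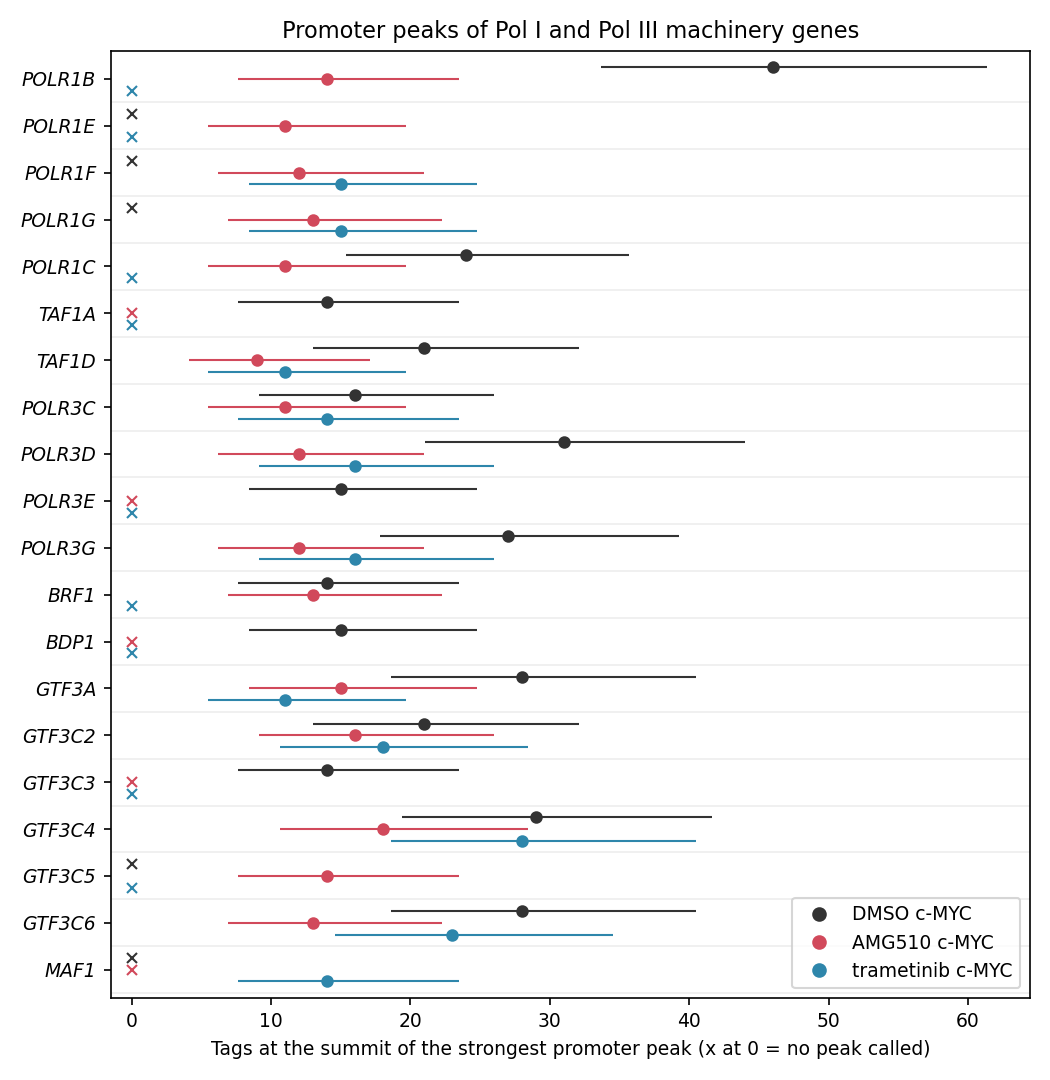
Tags at the summit of the strongest promoter peak (x axis) of the 20 members with a peak in at least 1 c-MYC list, with exact 95% Poisson intervals as bars and a cross at 0 where no peak was called. DMSO values reach 46 tags at POLR1B, whereas AMG510 values stay between 11 and 18 tags except for TAF1D at 9, and trametinib values between 11 and 28.

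The position of the summits was compared with that of all promoter peaks. The 18 member peaks in DMSO had their summits at a median of 112 bp from the nearest start, where all promoter peaks of the list had 168 bp. Under AMG510 the 19 member peaks lay at a median of 197 bp (168 bp over all) and under trametinib the 12 peaks at 147.5 bp (156 bp over all). Peaks within 1 kb of the start of another protein-coding gene were frequent among the members: 8 of 18 in DMSO, 10 of 19 under AMG510 and 6 of 12 under trametinib, against 13.6%, 13.0% and 14.4% of all promoter peaks. At these promoters a peak cannot be assigned to either gene. With such peaks left out, a choice made after the values were seen, 9 members kept a peak in DMSO, 8 under AMG510 and 6 under trametinib, where 18.5%, 11.8% and 8.82% of all genes did.

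**Figure D3:**
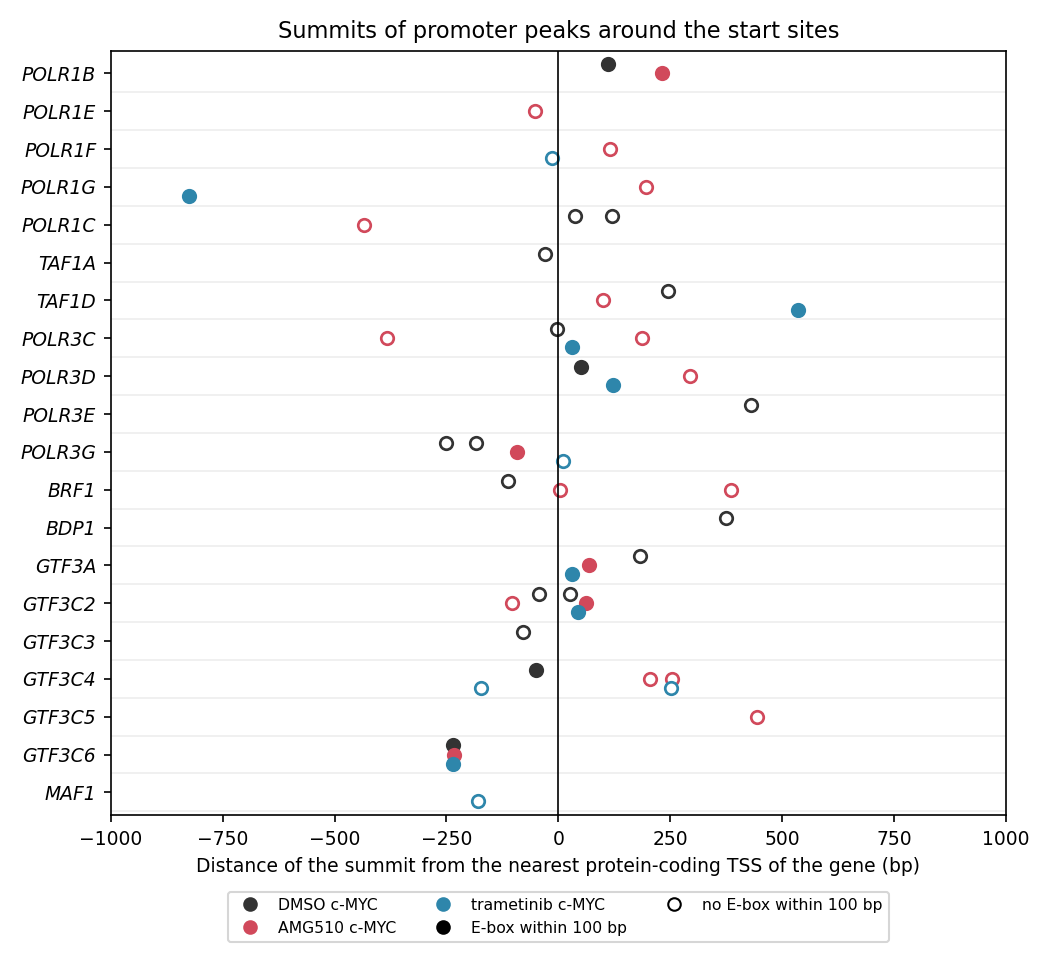
Distance of each promoter-peak summit from the nearest protein-coding start of the member (x axis, bp, negative upstream), with 1 line per member and colours for the 3 c-MYC lists; filled points have CACGTG within 100 bp. The 3 GTF3C6 points coincide and are all filled, while those of GTF3C4, TAF1D and POLR1G are spread.

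An E-box lay no more than 100 bp from the summit at 4 of the 18 member peaks in DMSO, in 5 of 19 under AMG510 and in 7 of 12 under trametinib, where 16.9%, 14.4% and 17.3% of all promoter peaks held it, and 4.59% of those in IgG. CACGTG reads the same on both strands. When CACGCG on either strand, a variant E-box that cannot fall on the same 6 bases, was allowed as well, 11, 7 and 8 member peaks held either sequence, against 37.0%, 32.5% and 35.9% of all promoter peaks and 9.17% of those in IgG. GTF3C6 was the only member with an E-box this close to the summit in all 3 lists. Independently of the peaks, RefSeq promoters (GRCh38, 250 bases before to 50 after the start) were available for 30 members, and 7 of them held CACGTG, against 11.0% of all promoters. A c-MYC peak in any list was present at 6 of these 7, namely POLR1G, POLR3C, POLR3E, GTF3C2, GTF3C4 and GTF3C6, with POLR3A as the exception. The same held for 10 of the 23 without the sequence. No share over all genes was taken for these any-list counts, so they have no baseline, and POLR1G had its peaks under the drugs alone. For the DMSO list alone the counts were 5 of 7 and 8 of 23, where 39.2% of all genes with the sequence in the promoter and 23.9% of those without it had a peak.

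The next comparison asked whether peaks seen in DMSO were also called after treatment. Of the 15 members with a DMSO peak, 11 also had one under AMG510, where 43.0% of all genes with a DMSO peak did, and 8 under trametinib, where 35.2% did. The AMG510 count depended on the length of the lists: with all c-MYC lists cut to the strongest 5431 peaks, 5 of 13 members with a DMSO peak were also called under AMG510, near the 39.0% of all such genes, and 8 of 13 under trametinib (41.8%). With an overlap of at least 50% of both peaks required, 4 of 15 members remained under AMG510 (21.9% of all such genes) and 5 of 15 under trametinib (18.9%), and with shared promoters left out 5 of 9 (42.3%) and 4 of 9 (33.8%). TAF1A, POLR3E, BDP1 and GTF3C3 were bound in DMSO alone, 4 of 15 against 44.9% of all such genes, and had 14 or 15 tags each. Of the 20 members with no DMSO peak, POLR1E, POLR1F, POLR1G and GTF3C5 had one under AMG510 (6.47% of all such genes) and POLR1F, POLR1G and MAF1 under trametinib (4.33%). POLR1F and POLR1G were thus called under both drugs and not in DMSO, as were 0.692% of all genes. Most of the drug peaks lay on a DMSO peak: 12 of 19 member peaks under AMG510 and 9 of 12 under trametinib overlapped one by at least 1 bp, against 55.2% and 61.0% of all promoter peaks.

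The calls under the drugs were mostly weak. With a fold enrichment above 5 required in each list, 12 members remained in DMSO (12.1% of all genes passed), but only GTF3A and GTF3C2 under AMG510 (5.75%) and POLR3D, GTF3C2, GTF3C4 and GTF3C6 under trametinib (4.87%). With a score above 60, which ranks peaks by q-value within a list, 10 members remained in DMSO (9.81%), GTF3C2 under AMG510 (2.98%) and GTF3C4 and GTF3C6 under trametinib (2.93%). The median fold of the member peaks was 5.63 in DMSO, 4.30 under AMG510 and 4.61 under trametinib, and that of all promoter peaks was 4.90, 4.64 and 4.71.

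Tags at the strongest promoter peak were then compared after division by the number of tags in calling. Each tag was counted over a length that differed by library, read from the narrowest peak: 177 bp in DMSO, 157 bp under AMG510 and 163 bp under trametinib. The ratios were not adjusted for this length, and a shorter one gives fewer tags at a summit for the same binding. Ratios and interval limits close to 1 cannot be told apart from this difference. Under AMG510 the ratio to DMSO was below 1 for all 11 members with a peak in both lists, with a median of 0.459, and 88.0% of all genes with a peak in both lists were also below 1, with a median of 0.713. The 95% interval of the ratio (exact conditional binomial) lay below 1 for 6 members, against 16.9% of all genes: POLR1B at 0.301 (0.153 to 0.556), POLR3D at 0.382 (0.179 to 0.766), TAF1D at 0.423 (0.171 to 0.964), POLR3G at 0.439 (0.203 to 0.896), POLR1C at 0.453 (0.200 to 0.960) and GTF3C6 at 0.459 (0.218 to 0.915). The upper limits of POLR3G, GTF3C6, POLR1C and TAF1D, between 0.896 and 0.964, cannot be told apart from 1 given the lengths of 177 and 157 bp. The POLR1C peaks compared did not overlap, and neither did the strongest GTF3C2 peaks, whose ratio was 0.752 (0.367 to 1.51). BRF1 stood at 0.917 (0.397 to 2.10), with 14 and 13 tags in the 2 lists. In DMSO the member promoter peaks were deeper than all promoter peaks, with medians of 20.5 and 16 tags. Under AMG510 these medians were 12 and 13 tags, and under trametinib 15 and 14. Members and all genes were not matched for DMSO depth in these ratios, and its part in the lower member values was not tested.

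Under trametinib the ratio was below 1 for all 8 members with a peak in both lists, with a median of 0.684, where 85.3% of all genes were below 1 and the median was 0.726. Its interval lay below 1 for GTF3A at 0.380 (0.171 to 0.788) and POLR3D at 0.499 (0.255 to 0.942), against 17.3% of all genes. The other 6 members had intervals that held 1, from TAF1D at 0.507 (0.221 to 1.10) to GTF3C4 at 0.934 (0.536 to 1.63). Both GTF3C4 ratios compared separate summits, 730 bp apart under trametinib and 732 bp under AMG510. With the drug peak nearest to the DMSO summit instead, a choice made after the values were seen, GTF3C4 stood at 0.467 (0.228 to 0.913) under trametinib and 0.579 (0.298 to 1.09) under AMG510, and GTF3C2 at 0.470 (0.198 to 1.04) under AMG510. The interval then lay below 1 for 3 members under trametinib (17.6% of all genes) and for 6 under AMG510 (17.1%), and the trametinib median was 0.540. GTF3C6 had 0.795 (0.437 to 1.43), and its trametinib peak of 23 tags stood above its AMG510 peak of 13 tags with overlapping counting intervals. Each tag count was then halved and rounded to a whole number, since both reads of a pair can count as tags. The interval stayed below 1 for POLR1B (upper limit 0.724) and POLR3D (0.996) under AMG510 and for no member under trametinib. The POLR3D limit cannot be told apart from 1, given the difference in tag length. With 1 library per treatment, a difference between treatments and one between libraries cannot be told apart.

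**Figure D4:**
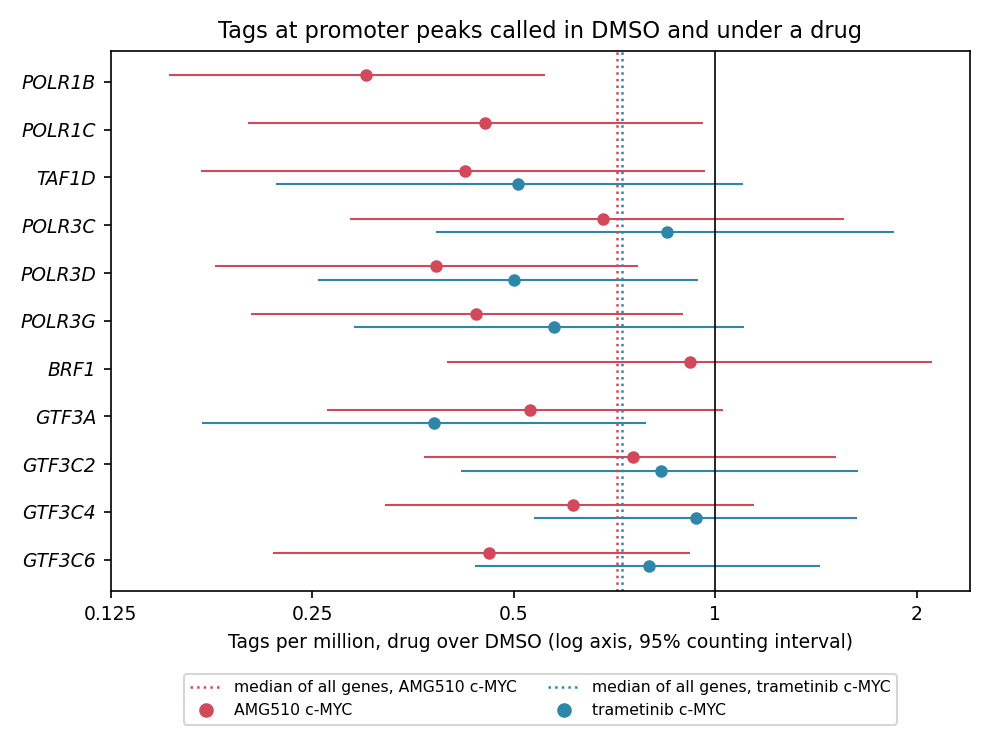
Tags, scaled to the tags in calling, at the strongest promoter peak under a drug over DMSO (x axis, log scale) for members with a peak in both lists; bars are 95% counting intervals, the solid line marks 1 and dotted lines mark the medians of all genes (0.713 for AMG510, 0.726 for trametinib). All points lie left of 1, from POLR1B at 0.301 under AMG510 to GTF3C4 at 0.934 under trametinib, a value that compares summits 730 bp apart. The ratios are not adjusted for the tag length, which was longest in DMSO.

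Genes of the same pathways outside the 35 were listed by name: the Pol III subunit CRCP, subunits that all polymerases share, TBP, the SNAPC complex that serves U6-type promoters, its partner ZNF143 and the RNA-binding protein SSB. Of these 14 genes, 5 had a DMSO peak (35.7%, against 24.2% of all genes), 2 an AMG510 peak (14.3%, against 15.3%) and 3 a trametinib peak (21.4%, against 11.8%). None had a peak in all 3 lists, where 5.59% of all genes did. SNAPC4 and POLR2H had a peak in DMSO and under trametinib, SSB in DMSO and under AMG510, and ZNF143 under both drugs. Of 19 genes for Pol II and its general factors, 2, 2 and 1 had a peak in the respective c-MYC lists, against 24.2%, 15.3% and 11.8% of all genes. The Wilson intervals (2.94 to 31.4% in DMSO and under AMG510, 0.935 to 24.6% under trametinib) held these shares. POLR2I, in DMSO and under AMG510, was the sole gene of that list bound more than once. A peak at GTF2A1 was called in IgG alone.

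The products of the enzymes were looked at in the same way. Among 36 named Pol III transcripts, 6 had a peak within 1 kb of the start in DMSO, 2 under AMG510 and 3 under trametinib, against 1 in IgG. Of all 4170 annotated short non-coding RNA genes of the same types, 1.39%, 1.49% and 1.13% had one in the c-MYC lists and 0.144% in IgG. That pool was not limited to Pol III transcripts and the 36 were listed by name, so these shares are not a matched background. RN7SL1, the RNA of the signal recognition particle, had 23, 14 and 15 tags, in a peak that is also at the RPS29 promoter. RNA5S6, of the 5S ribosomal RNA cluster, had 23, 25 and 20 tags but also 25 tags in the IgG list, the sole transcript of the 36 with an IgG peak. RN7SK, RMRP, VTRNA2-1 and RNU6-2 had a peak in DMSO alone and VTRNA1-1 under trametinib alone. The peaks of RN7SK, RMRP and RNU6-2 also lay within 1 kb of protein-coding starts, those of GSTA4, CCDC107 and TMEM259, and cannot be assigned to the short RNA. Transfer RNA genes are not in the annotation used and were not analysed here. The 3 annotated copies of the Pol I product 5.8S ribosomal RNA had no peak in any list. The filter on mapping quality can remove reads from such repeated genes, and its part was not tested.

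The limit of 1 kb left out few peaks. Inside the genes but beyond it, 2 members had a peak in each c-MYC list and 1 in IgG, where 9.94% of all genes had such a peak in DMSO, 13.3% under AMG510, 6.59% under trametinib and 5.42% in IgG. The nearest one outside it lay 1451 bp from POLR3F under AMG510, with 7 tags, at the promoter of DZANK1. A far deeper peak lay about 4 kb from the start of POLR3A, at the promoter of the ribosomal protein gene RPS24, with 63 tags in DMSO at a distance of 4516 bp, 32 under AMG510 and 28 under trametinib. The furthest peak inside the limit was that of POLR1G under trametinib, at 826 bp.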

How the data were processed

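c-MYC ChIP-seq was analysed in 3 libraries and IgG in 1, grouped by sample title. Per the submitters' processing notes and the methods, paired reads were trimmed (Trimmomatic 0.39), aligned to GRCh38 (BWA 0.7.17), filtered (SAMtools 1.9), cleared of duplicates (Picard), converted with bedtools 2.27.1 and called per library with MACS2 2.2.7.1 at default settings, and peaks on the ENCODE exclusion list were removed. The deposited score is −log10 q times 10. The deposited fold enrichment is a ratio of pileup to local background. The authors' −log10 p-value and q-value columns are within-library values. The methods do not state that IgG served as control in calling. In each list, 100% of the recovered backgrounds above the genome-wide level were whole tag counts over 10 kb of the same library. They fit a local background of each library itself. What AMG510 inhibits is not reported here.

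Whole tags at each summit were recovered from the deposited fold and −log10 p-value for 100% of peaks (tolerance 0.002), a step tested on simulated data, and depth from the genome-wide background. Starts came from GENCODE version 44. Wilson, exact Poisson and exact conditional intervals at 95% were computed with scipy 1.17.1 in Python 3.11.15. Named in full were members with a peak in at least 2 c-MYC lists or in a drug list only, and the 3 of largest fold among those in DMSO alone (BDP1, the remaining one, was added after its values were seen). Members and lists were chosen with earlier results of these data known.

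Alternatives varied the distance, start set, peak threshold, list length, overlap, motif window and tag independence.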

Additional observations from a re-analysis of the deposited data

Results flagged for a closer look

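Peaks inside the members' genes but more than 1 kb from any start were used in no comparison, and each c-MYC list held more of them than the 1 of the IgG list (POLR1A, intron 4, 14 tags). The lists differ in length, and relative to it the share was not higher than in IgG (0.0337% of peaks) for DMSO (0.0209%) and AMG510 (0.0193%), and was 0.0368% for trametinib. There were 2 in DMSO, in intron 13 of POLR3E (16 tags, fold 6.51) and intron 12 of BDP1 (12 tags). There were 2 under AMG510, in intron 23 of POLR3B (10 tags) and intron 5 of POLR3C (11 tags). There were 2 under trametinib, in intron 5 of TAF1B (10 tags) and coding exon 7 of TTF1 (8 tags). No gene recurred between lists, and a difference of 1 peak is within counting error.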

How the results depend on the processing

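Of 70 alternatives computed for 11 results, 48 stayed within 1.5 times the reported count. A score above 60 left 1 member under AMG510 and 2 under trametinib, the same numbers of DMSO members also called, and a fold above 5 left 2 and 4 in both counts. With promoters shared with another gene left out, chosen after seeing the data, 9 members had a peak in DMSO, 8 under AMG510 and 6 under trametinib, and 5 and 4 of the DMSO members were also called. With c-MYC lists of equal length 5 DMSO members were also called under AMG510, and with overlap of at least 50% of both peaks 4 under AMG510 and 5 under trametinib. An E-box anywhere in the peak gave 7 DMSO peaks and either motif 11, and an E-box within 50 bp gave 1 AMG510 peak and 3 trametinib peaks. Halved tags left 2 members under AMG510 and 0 under trametinib with a tag-ratio interval below 1. Of the 2, POLR3D had an upper limit of 0.996. Stricter thresholds keep fewer peaks by construction, and the cause of the other shifts was not tested. No member had an IgG peak under any alternative run, and the alternatives that only removed peaks or starts could not have changed this. All the IgG alternatives are among the 48. No paired analysis was possible because no group had a replicate (each had 1 library), and no replicate could be left out. Depth limits calls to summits of about 7 tags or more.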
